A study of Mus musculus with 6 samples.

Results

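The insulin-like growth factor (IGF) axis was described in endothelial cells (ECs) of the mouse thymus through 8 genes. The genes were chosen by name, with earlier results of these data known, out of 24457 genes listed on chromosomes in the deposited tables. They are the ligands Igf1 and Igf2, the receptors Igf1r and Insr, and the binding proteins Igfbp3, Igfbp4, Igfbp5 and Igfbp7. All 8 passed the filter on low values, an FPKM (fragments mapped to a gene, scaled to transcript length and to the depth of the library) that reached 1 in 2 or more samples, which left 11717 genes to test. The ECs came from wildtype female C57BL/6 mice of 4 to 6 weeks and were sorted as CD31+CD45-EpCAM- cells with no treatment. Surface Ly6C and P-selectin (Selp) divided them into type I (Ly6c+ Selp-), type II (Ly6c+ Selp+) and type III (Ly6c- Selp+) ECs, and 2 libraries were sequenced of each subset, 6 in all. The labels do not say how many mice gave a library, or whether the replicates came from separate mice, so a p-value measures only the spread between these libraries, which may be technical.

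IGF1 and IGF2 are secreted peptides that signal mainly through the receptor tyrosine kinase IGF1R, and the insulin receptor binds insulin and, in its shorter isoform, IGF2. In the blood and in tissues most IGF is held by binding proteins, which slow its clearance, keep it from its receptors or hand it over to them, and which proteases release again. Blood vessels are a known source of several binding proteins, and IGFBP7, which binds IGF weakly, is deposited around endothelium.

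Between type III and type I ECs, 5 of the 8 genes had an adjusted p under 0.05 in limma, where 4.14% of all genes tested did. The paper had already listed Igf2, Insr, Igfbp3, Igfbp4, Igfbp5 and Igfbp7 as differential between these subsets, with Cuffdiff. As the 8 genes were chosen with earlier results known, the values for all genes tested are background and no test of the set. Igfbp3, Igfbp7 and Igf2 fell from type I to type III ECs, as 2.05% of all genes tested did, and Igfbp4 and Insr rose, as 2.09% did, while Igf1, Igf1r and Igfbp5 did not pass. The largest difference was that of Igfbp3, 15.8-fold lower in type III than in type I ECs by mean FPKM. The median size of the log2 fold change was 1.63 over the 8 genes and 0.31 over all genes tested. On the deposited scale the subsets did not overlap for 5 of the 8 genes, and this was so for 37.9% of all genes tested. At an unadjusted p under 0.05 there were 6 of 8 genes, where 14.1% of all genes tested had such a p.

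**Figure D1:**
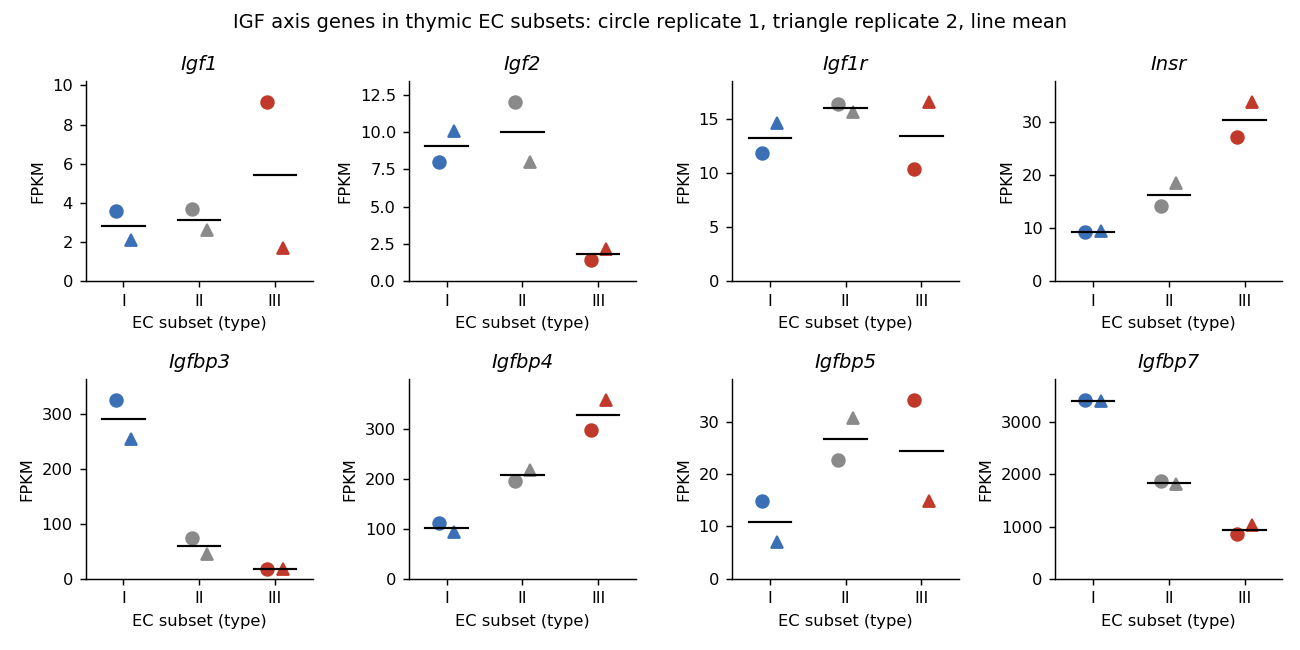
FPKM (vertical axes, each from 0) of the 8 genes in type I, type II and type III ECs, with a circle for replicate 1, a triangle for replicate 2 and a line for the mean of the subset. Igfbp3 and Igfbp7 step down and Igfbp4 and Insr step up from type I through type II to type III, Igf2 is low in both type III libraries alone, and Igf1 stands apart in type III replicate 1 at 9.13.

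The depth and the identity of the libraries bear on all of these values. The tables give no counts. Read back from the width of the 95% interval beside each FPKM, as if it held counting error alone, the fragments summed to between 1452476 and 2423171 per library, and 3 fragments corresponded to a median FPKM of 0.324 to 0.553. The summed FPKM ran from 221458 to 300932, and the values are not scaled between libraries. Selp was at 5.20 to 7.87 in type I, 313 to 416 in type II and 526 to 657 in type III libraries, and Ly6c1 at 692 to 1010, 351 to 522 and 59.7 to 99.6, as the labels have it. All 10 endothelial markers looked up were present, with a summed FPKM of 2300.0 to 3010.0, and 1 of them passed higher (Eng) and 1 lower (Kdr) between type III and type I ECs.

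Of the ligands, Igf2, a fetal growth factor that is expressed from the paternal allele and mostly shut down after birth, had an FPKM of 8.03 and 10.1 in the type I libraries, 11.99 and 7.97 in the type II libraries and 1.40 and 2.17 in the type III libraries. Both type III libraries lay below all 4 others, and types I and II overlapped. The log2 fold change, taken here and throughout as a difference in log2(FPKM + 1) that is too small for low genes, was -1.86 ± 0.33 (SE) between type III and type I ECs, with an adjusted p of 0.015 in limma. Between type III and type II ECs it was -1.97 ± 0.33 (SE), with a limma adjusted p of 0.065. Between type II and type I ECs it was 0.11, with a 95% interval of -0.65 to 0.86. The values in type III ECs rested on about 9 and 28 fragments, against 84 and 134 in type I ECs. In the fit between type III and type I ECs, Igf2 missed the threshold without type I replicate 1 (limma adjusted p = 0.054), without type I replicate 2 (0.11) and without type III replicate 1 (0.11), and also with no filter on low values (0.055), with no change of direction.

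Igf2 is on chromosome 7 (mm9, minus strand, 149836673 to 149846940). The antisense gene Igf2os overlaps it by 1343 bases and the library kit is not stated to keep the strand, but Igf2os was listed at no more than 0.056. H19, the noncoding RNA made from the maternal allele of the same locus 72621 bases away, reached an FPKM of 1.66 at most and did not pass the filter. Ins2, one of the insulin genes of the mouse and the neighbour of Igf2 on its other side, was listed at 0 in all 6 libraries, as was Ins1.

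Igf1, the ligand that growth hormone induces in liver and that macrophages and fibroblasts make locally, was low. Its FPKM was 3.58 and 2.09 in type I, 3.71 and 2.59 in type II and 9.13 and 1.70 in type III libraries. The subsets overlapped, since the highest and the lowest value both belonged to type III ECs. The log2 fold change between type III and type I ECs was 0.48, with a 95% interval of -0.81 to 1.77 (limma adjusted p = 0.82), and without type III replicate 1 it was -0.48. The gene spans chromosome 10 from 87321801 to 87399792 on the plus strand, and its values rested on 8 to 31 fragments.

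The receptors differed in behaviour. Insr, the insulin receptor, had an FPKM of 9.17 and 9.38 in type I, 14.1 and 18.4 in type II and 27.05 and 33.6 in type III libraries. No library of one subset overlapped another, and the order was type I, type II, type III. From type I to type III ECs Insr rose by 1.60 ± 0.27 (SE) on the log2 scale, with a limma adjusted p of 0.011, which is 3.27-fold by mean FPKM. The steps on either side of type II ECs were 0.74 (limma adjusted p = 0.52) and 0.86 (limma adjusted p = 0.31), and neither passed. The call between type III and type I ECs was lost without type I replicate 2 (limma adjusted p = 0.054), type III replicate 1 (0.053) or type III replicate 2 (0.096), while the log2 fold change stayed between 1.45 and 1.75 in all alternatives. Insr lies on the minus strand of chromosome 8, from 3150922 to 3279617, and its values rested on 258 to 1186 fragments. The tables hold 1 value per gene, so the isoforms of the receptor were not resolved.

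Igf1r, the main IGF receptor, on the plus strand of chromosome 7 from 75097143 to 75378553, was at 11.8 and 14.6 in type I, 16.4 and 15.6 in type II and 10.3 and 16.5 in type III libraries. Type III libraries lay on both sides of the type I libraries. The log2 fold change was -0.01 between type III and type I ECs, with a 95% interval of -0.68 to 0.67. The data thus allow a change of up to about that size in either direction. FPKM is scaled by transcript length, so the values of both receptors were set side by side. Their relative level rests on the transcript models used, which are not given. The ratio of Insr to Igf1r FPKM was 0.779 and 0.641 in type I libraries, 0.865 and 1.18 in type II libraries and 2.62 and 2.04 in type III libraries. By FPKM, Insr was thus below Igf1r in type I ECs and above it in type III ECs. With 2 libraries against 2, an exact permutation test of such a ratio cannot give a two-sided p below 0.33. Igf2r, the receptor that takes IGF2 to the lysosome, was higher than either in type I ECs and did not pass in any comparison, with a mean FPKM of 21.06 in type I, 23.6 in type II and 21.4 in type III ECs.

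Igfbp7 had the highest level of the 8 genes and Igfbp3 the largest difference between type III and type I ECs. The promoters of the 3 binding proteins with the highest mean FPKM are printed here because these genes did not move in the same direction. They are the 250 bases before the transcription start in RefSeq on GRCm38.p6, a later assembly than the mm9 of the tables, in the direction of the gene, with capitals for matches to the GC box (GGGCGG or, on the other strand, CCGCCC) and the TATA box (TATAAA or TTTATA). They lie at chr11:7213924-7214173 on the minus strand (Igfbp3), chr5:77408046-77408295 on the minus strand (Igfbp7) and chr11:99040994-99041243 on the plus strand (Igfbp4).
Igfbp3: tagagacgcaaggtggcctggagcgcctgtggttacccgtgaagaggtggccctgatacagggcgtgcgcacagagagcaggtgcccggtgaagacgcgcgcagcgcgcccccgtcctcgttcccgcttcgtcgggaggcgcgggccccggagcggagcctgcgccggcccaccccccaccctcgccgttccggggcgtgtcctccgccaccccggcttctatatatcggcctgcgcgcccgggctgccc
Igfbp7: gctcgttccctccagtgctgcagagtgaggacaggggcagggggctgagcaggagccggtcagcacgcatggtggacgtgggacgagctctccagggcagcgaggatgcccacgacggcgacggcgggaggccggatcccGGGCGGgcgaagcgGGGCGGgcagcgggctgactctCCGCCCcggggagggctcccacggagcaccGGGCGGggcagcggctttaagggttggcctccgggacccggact
Igfbp4: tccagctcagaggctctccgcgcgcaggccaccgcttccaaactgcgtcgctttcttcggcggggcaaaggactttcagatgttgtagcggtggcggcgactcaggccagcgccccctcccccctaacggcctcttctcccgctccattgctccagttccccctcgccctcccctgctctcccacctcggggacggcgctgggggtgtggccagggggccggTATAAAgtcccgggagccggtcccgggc
The Igfbp7 window held 4 GC boxes and no TATA box, and the Igfbp4 window held 1 TATA box and no GC box. The Igfbp3 window held no exact match to either, though it has the stretch tatatat, which the TATA box letters do not match. Of 32851 promoter windows of the same length, 32.7% held a GC box and 12.4% a TATA box. All 3 windows were rich in G and C, with 73.2% for Igfbp3, 74.0% for Igfbp7 and 69.2% for Igfbp4, against a median of 52.4%. The FOXO core (TGTTTAC or GTAAACA), a motif of transcription factors that insulin signalling keeps out of the nucleus, was in 3.17% of all windows and in none of the 10 windows of the 7 genes that had an entry. Insr had no entry.

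Igfbp3, the main carrier of IGF in serum, had an FPKM of 326 and 256 in type I, 74.5 and 44.8 in type II and 18.1 and 18.6 in type III libraries. The subsets did not overlap, and type I libraries lay far above the others. Igfbp3 fell from type I to type III ECs with a change of -3.90 ± 0.29 (SE) on the log2 scale and a limma adjusted p of 0.00016, place 20 of all genes tested by p. It was the one gene of the 8 that also passed between type II and type I ECs, where 0.393% of all genes tested passed and 0.0683% passed as lower, with a change of -2.30 ± 0.29 (SE) and a limma adjusted p of 0.014. That call was lost without type I replicate 1 (limma adjusted p = 0.070), type I replicate 2 (0.065) or type II replicate 2 (0.14). Between type III and type II ECs it differed by -1.60 ± 0.29 (SE), with a limma adjusted p of 0.073. Igfbp3 lies on the minus strand of chromosome 11, from 7106096 to 7113926, and Igfbp1, whose end is 3546 bases away, reached no more than 0.19.

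Igfbp7, also called angiomodulin, was the most abundant of the 8 genes in every library. Its FPKM was 3422 and 3403 in type I, 1875 and 1807 in type II and 849.6 and 1026 in type III libraries. On this scale the replicates of a subset lay close together and the subsets did not overlap. The closeness depended on the scale, since Igfbp7 took 1.14% and 1.54% of the summed FPKM in the type I libraries. It ranked 3 and 2 among all genes in the type I libraries, 5 and 4 in the type II libraries and 23 and 17 in the type III libraries. Igfbp7 fell from type I to type III ECs with a change of -1.87 ± 0.23 (SE) on the log2 scale and a limma adjusted p of 0.0026, 3.64-fold by mean FPKM, and missed the threshold with no filter on low values (limma adjusted p = 0.075). The steps from type I to type II and from type II to type III ECs were of like size, -0.89 (limma adjusted p = 0.23) and -0.98 (limma adjusted p = 0.16), and neither passed. The gene lies on the minus strand of chromosome 5, from 77778265 to 77837070. Its end overlaps that of Polr2b, on the other strand, by 89 bases, and Polr2b was at 6.99 to 11.1.

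Igfbp4, a binding protein that holds IGF off its receptor until the protease PAPP-A cuts it, ran the other way. Its FPKM was 110.6 and 94.3 in type I, 196 and 218 in type II and 298 and 357 in type III libraries. No library of one subset overlapped another. From type I to type III ECs it rose by 1.67 ± 0.23 (SE) on the log2 scale, with a limma adjusted p of 0.0042, 3.20-fold by mean FPKM, and this call was lost without type III replicate 2 (limma adjusted p = 0.055). The steps were 1.01 from type I to type II ECs (limma adjusted p = 0.14) and 0.66 from type II to type III ECs (limma adjusted p = 0.38). It lies on the plus strand of chromosome 11, from 98902574 to 98913957.

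Igfbp5, which binds to extracellular matrix, was at 14.86 and 6.99 in type I, 22.6 and 30.8 in type II and 34.1 and 14.82 in type III libraries. On the deposited scale type III overlapped both type II and type I, since type III replicate 2 (14.82) lay just below type I replicate 1 (14.86). The overlap with type I depended on the scale. As a percent of the summed FPKM, both type III libraries (0.0113 and 0.00544) lay above both type I libraries (0.00497 and 0.00316). The type III libraries differed from each other more than those of any other subset. It differed by 1.07 ± 0.44 (SE) on the log2 scale between type III and type I ECs, with a limma adjusted p of 0.32, and by 1.28 ± 0.44 (SE) between type II and type I ECs, with a limma adjusted p of 0.46. Igfbp5 lies on the minus strand of chromosome 1, from 72904639 to 72921439, next to Igfbp2, which did not exceed 0.48. Of the other binding proteins, Igfbp6 passed the filter, with a mean FPKM of 2.23 in type I, 3.33 in type II and 2.36 in type III ECs and no call, and the distant relative Igfbpl1 had mean values of 0.05 in each subset.

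Added up, Igfbp1 to Igfbp7 came to an FPKM of 3876 and 3763 in type I, 2170 and 2106 in type II and 1203 and 1418 in type III libraries. That was 1.29% and 1.70% of the summed FPKM in type I ECs, 0.831% and 0.920% in type II ECs and 0.400% and 0.521% in type III ECs. The make-up of the sum differed as well. Igfbp7 made up 88.3% and 90.4% of it in type I libraries and 70.6% and 72.4% in type III libraries, whereas the share of Igfbp4 was 2.85% and 2.51% in type I, 9.03% and 10.4% in type II and 24.8% and 25.2% in type III libraries. The ratio of Igfbp4 to Igfbp3 FPKM was 0.339 and 0.369 in type I, 2.63 and 4.87 in type II and 16.5 and 19.2 in type III libraries. Igfbp3 was thus the second binding protein in type I ECs and Igfbp4 in type II and type III ECs. These are sums and ratios of the values above and were not tested on their own.

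**Figure D2:**
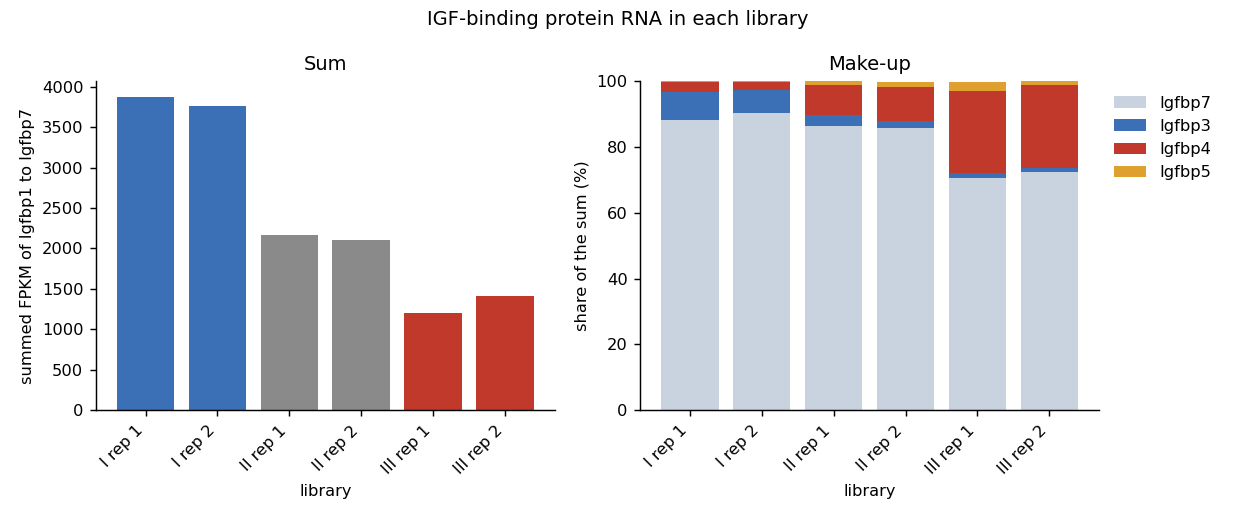
Left, the summed FPKM of Igfbp1 to Igfbp7 in each library, from 0. Right, the percent of that sum taken by Igfbp7, Igfbp3, Igfbp4 and Igfbp5, with the other binding proteins making up the small rest. The sum is lower and the Igfbp4 part wider in type II and again in type III libraries.

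The comparisons with type II ECs made few calls among the 8 genes. Between type II and type I ECs, 1 of 8 passed, as given above, and 6 of 8 had libraries that did not overlap, where 33.6% of all genes tested did not. At an unadjusted p under 0.05 there were 5 of 8 genes, where 7.48% of all genes tested had such a p. Between type III and type II ECs, limma called 0 of 8 genes, where 0.222% of all genes tested passed, 0.0939% as higher and 0.128% as lower. At an unadjusted p under 0.05 it had 5 of 8 (Igf2, Igfbp3, Igfbp4, Igfbp7 and Insr), where 9.99% of all genes tested had such a p. In this comparison the scaling of the libraries changed calls. The median log2 fold change of all genes tested was 0.14 in favour of type III ECs on the deposited scale and 0.0022 after scaling to the upper quartile, and on that second scale Igf2 (-2.09, limma adjusted p = 0.040) and Igfbp3 (-1.76, limma adjusted p = 0.019) passed. After quantile normalization Igfbp7 passed too (-1.24, limma adjusted p = 0.022). Over all genes, the calls between type III and type II ECs were 11 higher and 15 lower on the deposited scale against 25 higher and 75 lower after upper quartile scaling and 18 higher and 85 lower in transcripts scaled to 1 sum, and those between type II and type I ECs were 38 higher and 8 lower against 70 higher and 28 lower.

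**Figure D3:**
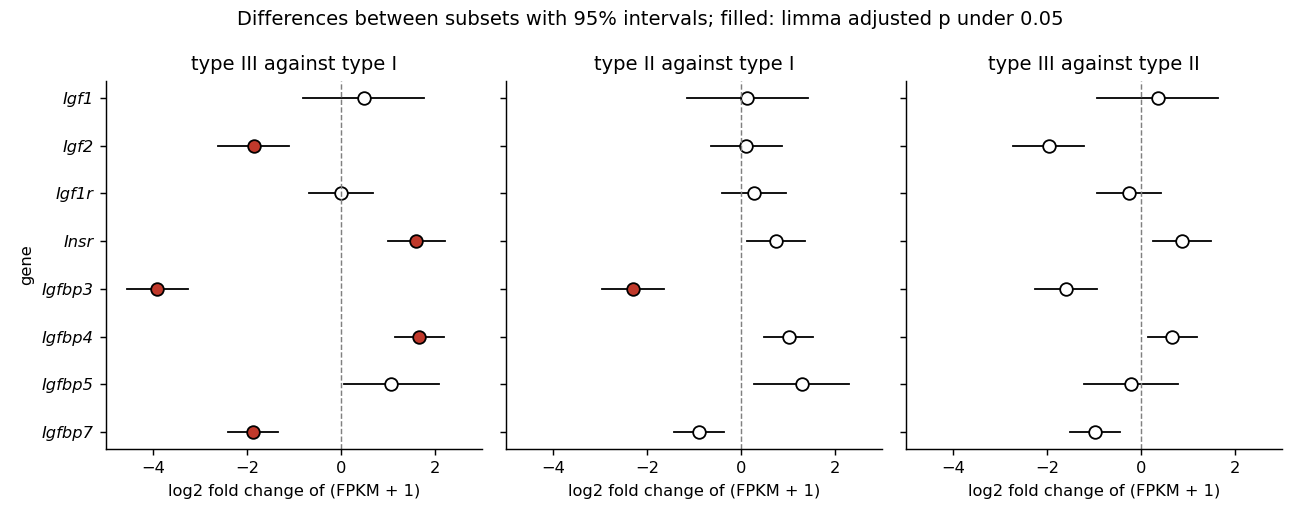
Log2 fold change of FPKM + 1 (horizontal axes) for the 8 genes in the 3 comparisons, with bars for the 95% interval of the limma fit and filled circles where the adjusted p was under 0.05. There are 5 filled circles between type III and type I, 1 (Igfbp3) between type II and type I and 0 between type III and type II, where the intervals of Igf2, Igfbp3, Igfbp4, Igfbp7 and Insr still lie on 1 side of 0.

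Beyond the 8 genes, 86 other genes of the pathway were looked up in lists by role, and 67 of them passed the filter. Between type III and type I ECs 2 of the 67 rose and 1 fell, a count near the background of 4.14% of all genes tested, and 0 passed in either comparison with type II ECs, where 0.222% to 0.393% of all genes tested did. The median log2 fold change of the 67 was -0.04, against 0.08 for all genes tested. Both genes that rose came from the list of adaptors and feedback genes. With Cuffdiff, the paper had already listed Sh2b2, Socs2 and Cd93 as differential between these subsets. Sh2b2, an adaptor of the insulin receptor also known as APS, went from a mean FPKM of 5.63 ± 1.56 (SD, n = 2) in type I through 17.7 ± 1.42 (SD, n = 2) in type II to 22.8 ± 6.56 (SD, n = 2) in type III ECs, with a log2 fold change of 1.84 and a limma adjusted p of 0.011. It missed the threshold without type I replicate 2 (limma adjusted p = 0.073) or type III replicate 2 (0.094). Socs2, which is induced by growth hormone and restrains its signalling, went from 25.7 through 45.9 to 73.6, with a log2 fold change of 1.52 and a limma adjusted p of 0.032. It missed the threshold without type I replicate 2 (limma adjusted p = 0.15), type III replicate 1 (0.23) or type III replicate 2 (0.092), and also with no filter on low values (0.092) and without the trend (0.072). The gene that fell was Cd93, an endothelial surface protein that binds IGFBP7, with a mean FPKM of 194.8 in type I, 136.9 in type II and 89.1 in type III ECs and a log2 fold change of -1.11 (limma adjusted p = 0.038). Its call was lost when any 1 of the 6 libraries was left out, with limma adjusted p-values of 0.11 and 0.057 without type I replicates 1 and 2, 0.075 and 0.081 without those of type II and 0.17 and 0.20 without those of type III. It was lost as well with no filter on low values (0.081), without the trend (0.11) and with only the samples compared in the fit (0.079).

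The lists below are short, and with 4.14% of all genes tested called between type III and type I ECs, a count of 0 in each is near the background. The paper, with Cuffdiff, did list Irs2, Cdkn1c, Pik3cb and Pik3r3 as differential between these subsets. In the list of phosphoinositide 3-kinase, AKT, FOXO and mTOR genes, 0 of 23 tested passed between type III and type I ECs, with a median log2 fold change of -0.04 and a range of -0.96 to 0.47, and Akt1 was the highest, at a mean FPKM of 60.9 in type I and 62.3 in type III ECs. Of the RAS and MAPK genes 0 of 11 passed, and the highest, Mapk3, was at 94.05 in type I and 59.2 in type III ECs (limma adjusted p = 0.21). In the list of adaptors and feedback genes, the 2 named above passed of 14 tested, and Socs3 was the highest, at 310.4 in type I and 433 in type III ECs (limma adjusted p = 0.445). The insulin receptor substrates were low, with Irs2 at 10.6 and 5.32 (limma adjusted p = 0.25), Irs1 at 0.91 and 0.29 and Irs4 listed at 0. Of the proteases that cut binding proteins and their inhibitors, 0 of 6 tested passed and Adamts1 was the highest, at 328 in type I and 314 in type III ECs. Pappa, the protease of IGFBP4, did not pass the filter, with a mean of 0.32 in type I and 0.19 in type III ECs. The 3 RNA-binding proteins named for Igf2 mRNA did not pass it either. In the list of imprinted genes that are known to go with H19 and Igf2, 0 of 7 tested passed, Grb10 was the highest, at 20.6 in type I and 16.8 in type III ECs, and Cdkn1c came closest, at 17.96 in type I, 5.09 in type II and 6.36 in type III ECs (limma adjusted p = 0.057 between type III and type I ECs).

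**Figure D4:**
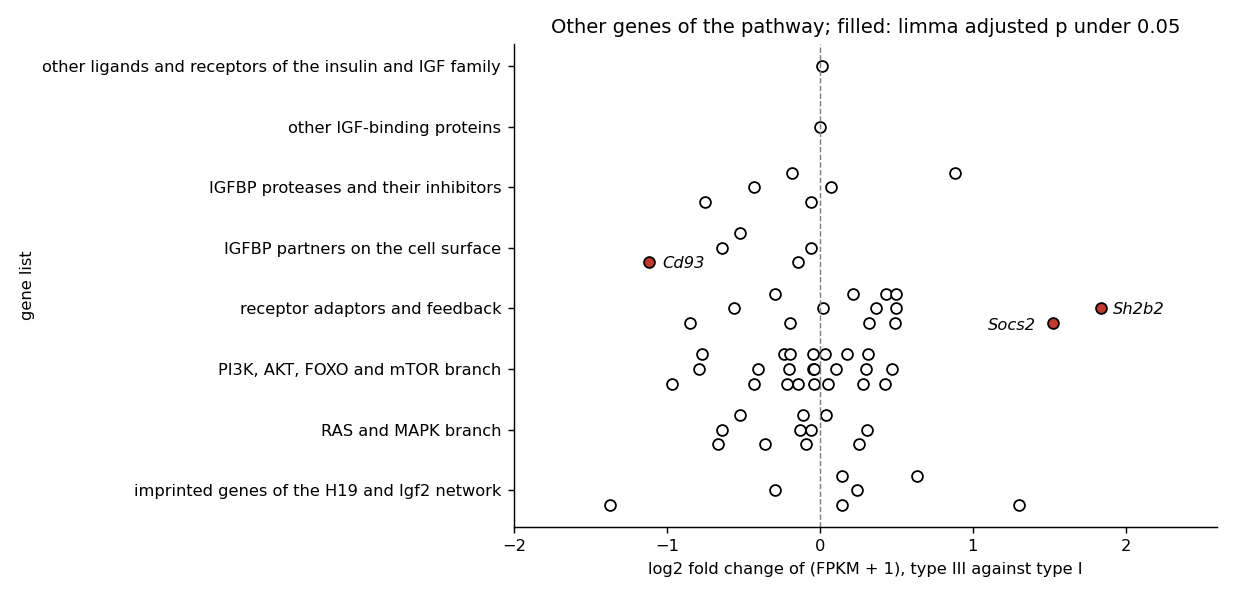
Log2 fold change of FPKM + 1 between type III and type I ECs (horizontal axis) for the tested genes of each list (rows), without the 8 genes of the axis; vertical offsets within a row only separate the points. Filled circles mark an adjusted p under 0.05, which Sh2b2 (1.84), Socs2 (1.52) and Cd93 (-1.11) had.

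For the 4 genes with a mean FPKM of at least 10 and a call, the 3 genes with the most similar profile were taken, by the smallest Euclidean distance between log2(FPKM + 1) values centred on each gene's mean, over 6 samples and among 4195 other genes with a mean FPKM of at least 10. Insr was closest to Foxp4 (distance 0.233), Wbp1l and Bcr. Foxp4, a forkhead transcription factor, had mean FPKM values of 9.57 in type I, 19.3 in type II and 31.8 in type III ECs. Igfbp4 was closest to Slco2b1 (0.225), an organic anion transporter at 32.2, 60.1 and 99.9, and then to Plxnb2 and Rab3il1. Igfbp7 was closest to Mgll (0.337), the lipase of monoglycerides at 139, 76.7 and 35.8, and then to Ccdc85a and Cdh13. Igfbp3 was closest to Rgcc (0.813), a cell cycle regulator at 280 in type I, 66.1 in type II and 12.4 in type III ECs, and then to Cldn5, the tight junction protein of endothelium, and Mcf2l. The distances are larger for Igfbp3, whose FPKM ran from 18.1 to 326.

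Markers of other cell types were measured beside these genes, since pericytes, fibroblasts and macrophages also make members of the axis. In bulk RNA, fewer cells of a type and less RNA per cell cannot be told apart. The 10 markers of pericytes and smooth muscle were all present, with a summed FPKM of 630 and 271 in type I, 625 and 476 in type II and 184 and 264 in type III libraries. In both type III libraries 7 of the 10 lay below both type I libraries, as 2009 of all 11717 genes tested did, and 4 of them, Pdgfrb, Notch3, Kcnj8 and Abcc9, passed as lower, as 2.05% of all genes tested did. Of the smooth muscle genes, Tagln and Acta2 lay above both type I libraries, Tagln passed as higher, and Acta2 was at 13.7 and 7.54 in type I and 16.9 and 33.8 in type III libraries. Pdgfrb, the receptor that defines pericytes, was at 39.04 and 24.2 in type I, 33.5 and 25.1 in type II and 6.40 and 9.43 in type III libraries, and Kcnj8 was listed at 0 in type III replicate 1. The sum was nearly the same in type III replicate 2 (264) and type I replicate 2 (271), but its make-up differed. Tagln, Acta2 and Myh11 were at 100.5, 33.8 and 32.9 in type III replicate 2 and at 23.8, 7.54 and 9.40 in type I replicate 2. The other 7 markers were lower in type III replicate 2 than in type I replicate 2. Igf2 was at 2.17 and 10.1 in these libraries. The part of these cells in the values of Igf2 was not tested. Igfbp7 was at 3422 and 3403 in the type I libraries, whose marker sums were 630 and 271, and it was lower in both type II libraries than in both type I libraries. Between type II and type I ECs 0 of the 10 markers lay below both type I libraries, as 2418 of all 11717 genes tested did. Above both lay 3 markers, as 1523 of all genes tested did. Between type III and type II ECs 8 of the 10 lay below both type II libraries, as 1559 of all genes tested did, and 0 lay above. The part of these cells in the lower Igfbp7 of type III ECs was not tested.

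The 7 myeloid markers had a summed FPKM of 296 and 41.0 in type I, 120 and 41.9 in type II and 480 and 82.2 in type III libraries, and the highest sum was in type III replicate 1, the library with the highest Igf1. In each subset, replicate 1 had both the higher sum and the higher Igf1. Replicate 1 also had the higher sum in each subset for the markers of thymocytes and T cells, thymic epithelium and lymphatic endothelium, so this was not particular to myeloid markers. The part of myeloid cells in Igf1 was not tested. The 7 fibroblast markers summed to 274 and 166 in type I, 452 and 273 in type II and 179 and 180 in type III libraries, and 0 of 7 passed in any comparison. In both type III libraries 6 of the 7 lay below both type II libraries, as 1559 of all 11717 genes tested did, and 0 lay above. The part of fibroblasts in the values of the axis was not tested. The sums were 26.4 to 174 for the 9 thymocyte and T cell markers and 16.8 to 79.8 for the 7 markers of thymic epithelium. Neither list had a limma call in any comparison. In both type III libraries, 6 of the 8 thymocyte and T cell markers tested lay above both type II libraries and 0 lay below. Above lay 3240 of all 11717 genes tested. Ptprc and Lck were listed by the paper, with Cuffdiff, as differential between type III and type I ECs, both higher in type III. The part of T cells in the values of the axis was not tested. The 5 markers of lymphatic endothelium summed to 9.85 to 30.1, with no limma call, and Ccl21a among them was at 0 in every library. Among them Lyve1 and Flt4 were listed by the paper, with Cuffdiff, as differential between type III and type I ECs. Lyve1 was higher and Flt4 lower in type III ECs. The erythroid sum was 84.3 and 140 in type I, 51.4 and 26.4 in type II and 0.0 and 10.9 in type III libraries, from 4 of 5 markers listed. Both rows of the globin gene Hba-a1, which has near-identical copies and is uncertain for that reason, passed as lower between type III and type I ECs, and 1 of them did so in each of the other comparisons.

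**Figure D5:**
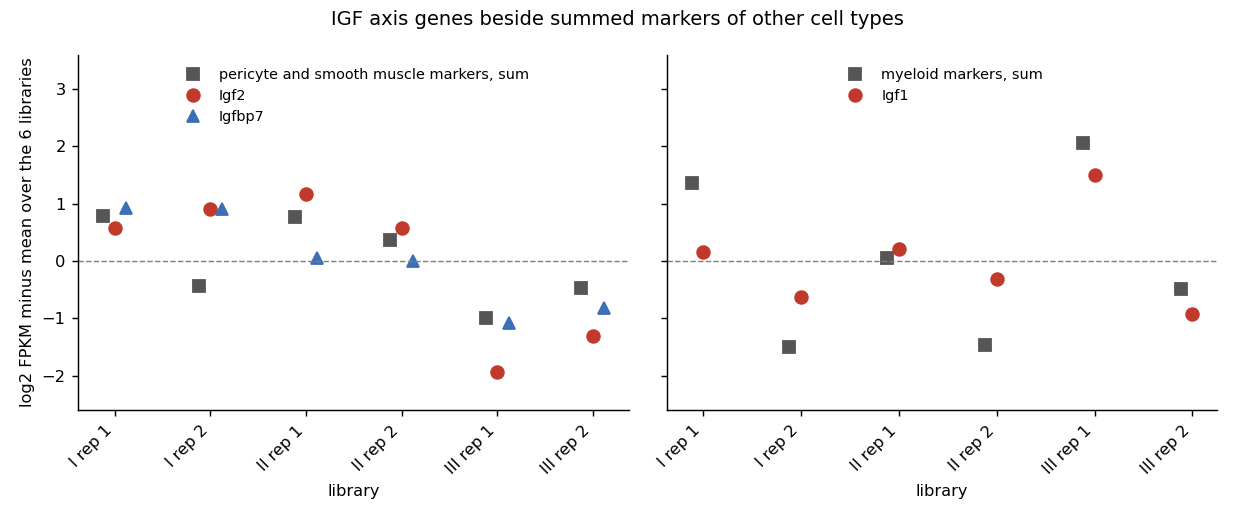
Log2 FPKM minus its mean over the 6 libraries (vertical axis) in each library, with squares for the summed markers and circles and triangles for single genes. Left, pericyte and smooth muscle markers beside Igf2 and Igfbp7, where the type III libraries are lowest in Igf2 and Igfbp7. The type I libraries differ in the marker sum (630 and 271) and are close in Igfbp7 (3422 and 3403), in FPKM not scaled between libraries. Right, myeloid markers beside Igf1, both highest in type III replicate 1.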

How the data were processed

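RNA of 3 sorted subsets of thymic ECs was measured in 2 libraries each. Per the paper's methods and the submitters' processing notes, reads were trimmed, mapped to mm9 with TopHat2 2.0.10 and quantified with Cufflinks 2.1.1 (CASAVA 1.8 is also named), and the authors deposited FPKM for each library on its own with 95% interval bounds. The gene annotation is not given in the sources used here, and how reads with several matches were treated is not stated. From the deposited FPKM, rows without a chromosome position were dropped, and log2(FPKM + 1) of the 11717 genes that reached an FPKM of 1 in 2 or more samples was fitted with limma 3.58.1 in R 4.3.3 (trend, 1 mean per subset, all 6 samples). P-values were adjusted over all genes tested by the Benjamini-Hochberg method, with a threshold of 0.05. Cuffdiff, which the study used, needs reads. limma was tested on simulated data. The tested results were recomputed with other pseudocounts, filters and scalings, without the trend, with only the samples compared, with the replicate number as a block and without each library in turn. The 8 genes and the lists were chosen with earlier results of these data known. In the lists, genes past the threshold and the highest gene of each list are named; Irs1, Irs2, Irs4, Pappa, Cdkn1c and the genes of other cell types were named after their values were seen. Strand and overlap came from GENCODE M1 on mm9, and promoters from RefSeq.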

Additional observations from a re-analysis of the deposited data

How the results depend on the processing

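Of the log2 fold changes of the 8 genes and of Sh2b2, Socs2 and Cd93 under the alternatives, 399 kept their direction and their side of the threshold, 30 lost the call, 17 gained it and 10 turned direction; the cause was not tested. Of the 8 genes, between type III and type I ECs 3 passed with no filter on low values and 3 to 5 without 1 library; Igfbp3 passed in all 17 alternatives. Between type II and type I ECs 0 passed with no filter, 0 without the trend and 0 to 1 without 1 library. Between type III and type II ECs 3 passed in transcripts scaled to 1 sum without Rn45s, 3 after quantile normalization, 2 after upper quartile scaling and 0 without any 1 library. Of all genes, type III against type I gave 485 calls (245 higher, 240 lower), 697 scaled to 1 sum (298 higher, 399 lower), 694 quantile normalized (313, 381), 692 upper quartile scaled (323, 369), 317 with no filter and 209 to 404 without 1 library. Type II against type I gave 46, and 12 with no filter, 98 scaled to 1 sum, 103 quantile normalized (73 higher, 30 lower), 98 upper quartile scaled, 15 without the trend, 29 with only the samples compared and 12 to 33 without 1 library. Type III against type II gave 26, and 0 with no filter, 103 scaled to 1 sum, 90 quantile normalized (22 higher, 68 lower), 100 upper quartile scaled, 10 without the trend, 7 with only the samples compared and 2 to 14 without 1 library. Leaving out 1 library turned the log2 fold change of Igf1, which ran from -0.48 to 1.43 between type III and type I, from -0.16 to 0.41 between type II and type I and from -0.61 to 1.30 between type III and type II ECs. It also turned that of Igf1r (-0.32 to 0.31 between type III and type I, -0.58 to 0.043 between type III and type II), Igf2 (-0.16 to 0.38 between type II and type I) and Igfbp5 (-0.79 to 0.36 between type III and type II). In these fits the remaining library was assumed to vary like the other subsets. Igf1 was not tested with an FPKM of at least 5, a filter it did not pass.

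The subsets share replicate numbers, and the labels do not say what a number stands for. Same-numbered libraries deviated together, with correlations of 0.199, 0.306 and 0.180 over 11717 genes, but there are only 2 numbers. With the replicate number as a block, 5 of the 8 genes passed between type III and type I, 2 (Igfbp3 and Igfbp4, adjusted p = 0.038 in limma) between type II and type I and 3 (Igf2, Igfbp3 and Igfbp7) between type III and type II ECs, and of all genes 971, 183 and 229. The block together with upper quartile scaling, chosen after seeing the data, gave 3 genes between type II and type I and 3 between type III and type II ECs, and of all genes 1207, 292 and 297.

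The deposited values carry no counts, so the limits of low genes rest on fragments estimated from interval widths. These widths were read as if they held counting error alone, which was not tested.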
